A study of Mus musculus with 24 samples.

Results

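The comparison of PCR-amplified with unamplified RNA rests on 16 of the 24 Affymetrix mouse arrays of a study that rebuilt germ cell specification in culture. Its members are all arrays of the 4 cell types that were measured both ways, with 2 amplified and 2 unamplified arrays for each, so that 8 amplified arrays were set against 8 unamplified ones. The cell types were embryonic stem cells (ESCs) kept in 2i+LIF without feeders, epiblast-like cells (EpiLCs) on day 2 after induction from ESCs, epiblast stem cells (EpiSCs) taken from E5.75 epiblast, and primordial germ cell-like cells (PGCLCs) induced from day 2 EpiLCs. The strain was C57BL/6 throughout, and total RNA was extracted with RNeasy. For amplified arrays the labels give 22 cycles of PCR from 5 ng of total RNA, an amount equal to 500 cells, and for unamplified arrays no amplification. All 16 arrays carry the same labelling protocol. The labels name the 2 arrays of a group biological replicates, but not whether they were separate cultures or whether amplified and unamplified arrays came from the same RNA, and p-values then reflect only how far these arrays scatter, which may be technical. Array codes in the labels differ between amplified and unamplified arrays in every cell type, so amplification and the run behind a code cannot be told apart.

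Amplification is used where too few cells are at hand for standard labelling, as with cells picked from an early embryo. RNA is copied into cDNA from its poly(A) tail, the cDNA is multiplied by PCR, and labelled RNA is then made from it. Copies begin at the 3′ end, can stop short of the 5′ end, and are multiplied with an efficiency that differs between sequences. An Affymetrix probe set is a group of short probes against a stretch of a transcript, usually near its 3′ end, and a gene often has several probe sets against different stretches.

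Median intensity was 36.7 to 40 on amplified and 41.1 to 49.2 on unamplified arrays. Replicate arrays correlated across genes, which are not independent replicates, with r of 0.974 to 0.99 without and 0.913 to 0.972 with amplification. The lowest value belonged to amplified EpiSCs, in which 4154 of 15780 tested genes (26.3%) lay more than 2-fold apart between replicates, against 876 to 1508 genes in the other amplified groups and 346 to 1193 in the unamplified groups. The cell type labels held on both kinds of array. Zfp42 (Rex1), a gene of naive pluripotency, read 2160 to 2250 on the 4 ESC arrays and 17.8 to 30.6 on the 4 EpiSC arrays. Cer1, a secreted antagonist made by endoderm, read 179 to 530 in EpiSCs and at most 1.64 elsewhere. Prdm14, a germ cell specifier, read 1340 to 1770 in PGCLCs, 538 to 691 in ESCs and at most 7.77 elsewhere. Fgf5, a growth factor of the postimplantation epiblast, read 448 to 900 in EpiLCs, 398 to 950 in EpiSCs and 1, the lowest value of the table, in ESCs.

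The first question was how many transcripts read differently after amplification, whatever the cell type. For a gene with several probe sets the one brightest on average over the 16 arrays was used, and differences are log2 intensity on amplified minus unamplified arrays, with cell type as a block. A gene was called where limma's adjusted p was under 0.05 and the difference at least 1, a 2-fold change. Of 15780 genes tested, 849 (5.38%) read higher on amplified arrays and 1573 (9.97%) read lower, so the deposited scale gave more losses than gains. A stricter group did so in each of the 4 cell types, with both amplified arrays beyond both unamplified ones and a mean difference of at least 1 in each: 300 genes (1.9%) read higher and 737 (4.67%) lower. On the fitted scale, where values under 4.2 stand at 4.2, the 300 higher genes had a median difference of 1.87 and the 737 lower genes a median size of 2.17. Of them, 94 and 100 were under the filter level (24 on amplified and 28 on unamplified arrays) on every array of 1 kind, so that their folds are only lower bounds. With those genes at their bounds the medians were 1.62 and 2.00, and 25 genes were at least 32-fold higher and 15 at least 32-fold lower. Most genes moved little, since the middle 90% of differences, from the 5th to the 95th percentile, ran from -1.51 to 1.04 around a median of 0.01.

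The balance of gains and losses depended on scaling. With each array centred on its median, which moved the median difference of all genes by 0.24, 1600 genes were called higher and 1127 lower, so 58.7% of called genes were higher against 35.1% on the deposited scale. This was 10.1% and 7.14% of tested genes. Quantile normalization gave 1672 higher (10.6%) and 1094 lower (6.93%), or 60.4% higher among those called. Under all 3 scalings, 849 of 849 higher and 1067 of 1573 lower genes kept their call, and of the genes that differed in all 4 cell types, 300 of 300 higher and 528 of 737 lower did so by the same criteria.

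The counts were also taken in each cell type on its own, from a fit of the 8 group means. ESCs had 965 genes higher (6.12%) and 1522 lower (9.65%), EpiLCs 807 (5.11%) and 1592 (10.1%), EpiSCs 881 (5.58%) and 1540 (9.76%), and PGCLCs 876 (5.55%) and 1180 (7.48%). More genes were lower than higher in each of them on the deposited scale. Whether the counts differ between cell types was not tested.

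**Figure D1:**
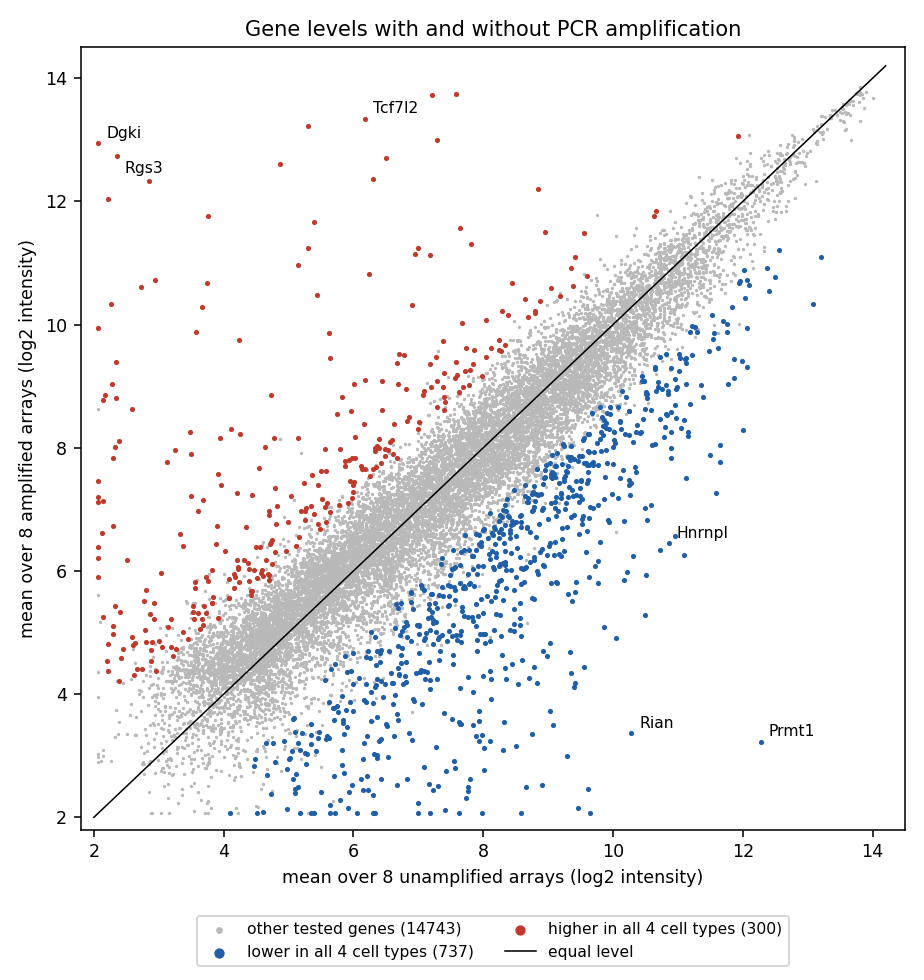
Mean log2 intensity of each tested gene over the 8 unamplified arrays (horizontal axis) and the 8 amplified arrays (vertical axis); red points are the 300 genes higher and blue points the 737 genes lower in all 4 cell types, and the line marks equal levels. Values under 4.2, a log2 of 2.07, stand at that floor; most genes lie near the line, Dgki, Rgs3 and Tcf7l2 far above it, and Prmt1 and Rian far below it.

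The genes with the greatest gains read low on unamplified arrays and far higher on amplified ones, in every cell type. Dgki, a diacylglycerol kinase of neurons, read 1 on all 8 unamplified arrays and 6760, 7780 and 10000 at the lowest, median and highest of the 8 amplified arrays. Cd226, a receptor of T and natural killer cells, read 26.2, 39.8 and 70.2 without amplification and 7640, 9780 and 12700 with it. Tcf7l2, a transcription factor of WNT signalling, read 48.3, 72.7 and 92.6 against 9390, 10400 and 11600. For each of them every amplified array lay above every unamplified one, in all 4 cell types. In Tcf7l2, for which both kinds of array were above the filter level, the difference was 7.17 ± 0.12 (SE, adjusted p = 2.75e-16, limma). Where a gene was under that level on all arrays of a kind, its fold is a lower bound computed against the level, and its fitted difference depends on the floor of 4.2. Dgki was at least 280-fold higher, Rgs3, a regulator of G protein signalling, at least 245-fold, and Atp2b2, a calcium pump of the plasma membrane, at least 150-fold. For Rgs3 this is the reading of 1 of its 4 probe sets; with any of 7 of the 8 amplified arrays left out, the exception being EpiSC replicate 1, another probe set was the brighter one and differed by -0.41 to -0.32.

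The other 5 of the 10 genes with the greatest gains were Tmem151a, at least 124-fold higher, Pparg, Pln, Lrrc38 and Paxx. Pparg, a nuclear receptor of fat cells, was the least even of them. It read 368 on 1 amplified EpiSC array and 1300 to 2550 on the other 7 amplified arrays, and 81.3 on 1 unamplified PGCLC array against at most 8.35 on the other 7 (difference 7.88 ± 0.54, adjusted p = 1.34e-08). Pln, which encodes phospholamban of heart muscle, read 748 to 1280 against 1 to 3.14, at least 35.1-fold higher. Its other probe sets, at 0.547 ± 0.257 and 0.133 ± 0.184, were not called. Lrrc38, an accessory protein of potassium channels, was at least 60.6-fold higher. Paxx, a DNA end-joining factor, read 4140 to 9750 against 20.9 to 47.3, a difference of 7.73 ± 0.19 (adjusted p = 4.2e-14). Its other probe set read 67.8 to 94.6 against 50.9 to 87.4 and was not called. Of the 9 other tested probe sets of the 10 genes, 0 were called higher and 3 lower. In all 10 genes the amplified and unamplified arrays stood apart without overlap. Cd226, Pparg, Pln and Dgki are known from blood, fat, muscle and nerve cells. The greatest losses, given next, also hold genes of such specialised cells, as in Ncam2, Grin2b and Rpgrip1.

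The genes with the greatest losses were ones that unamplified arrays read clearly. Prmt1, the main arginine methyltransferase of the cell, read 4340, 4920 and 6070 without and 1, 10.1 and 20.5 with amplification, which made it at least 208-fold lower. Rian, a maternally expressed long noncoding RNA of the Dlk1 imprinted region, read 654, 1270 and 2140 against 3.98, 10.6 and 33.7 (difference -6.92 ± 0.30, adjusted p = 4.33e-11). Prmt1 was under the filter level on every amplified array, and Rian at this probe set on all of them but 1 EpiSC array, at 33.7. Another probe set of Rian read 48.7 to 90.1 without and 63.3 to 90.6 with amplification and was not called. A further probe set of Rian was called lower (-2.7 ± 0.255). Cebpb, a transcription factor of stress and differentiation, read 150 to 722 against 1 to 26.5, with the lowest unamplified values in ESCs (difference -6.16 ± 0.32, adjusted p = 5.12e-10). Exosc6, a subunit of the RNA exosome, read 268 to 502 against 1 on all 8 amplified arrays, at least 15.9-fold lower. Of the other 6, Ncam2, a neural adhesion molecule, was at least 33.2-fold lower, Rpgrip1, a ciliary protein of photoreceptors, at least 32.6-fold, and Grin2b, an NMDA receptor subunit, at least 29.3-fold. Mideas, of a histone deacetylase complex, was at least 26-fold lower, the pseudogene Tubb2a-ps2 at least 19.9-fold, and the scaffold protein gene Magi3 at least 10.6-fold. Of the 11 other tested probe sets of these 10 genes, 4 were also called lower and 0 higher.

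**Figure D2:**
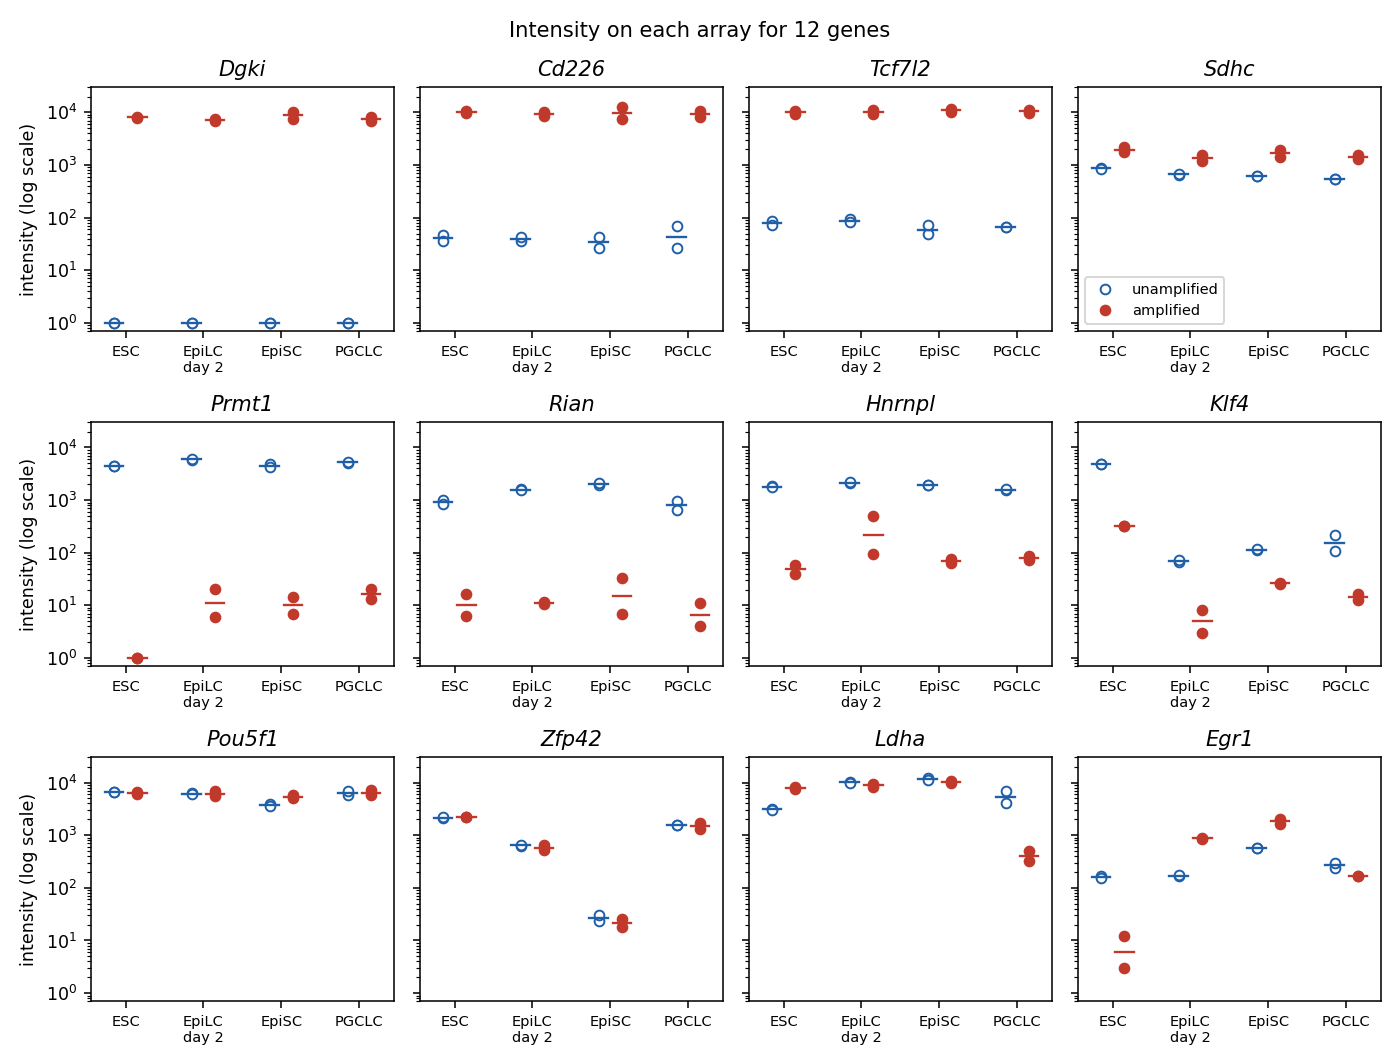
Intensity on each array (log scale) for 12 genes in the 4 cell types; open blue points are unamplified and filled red points amplified arrays, and short lines are geometric means of the 2 arrays. Dgki, Cd226 and Tcf7l2 are high on all amplified arrays, Prmt1, Rian, Hnrnpl and Klf4 are low on them, Pou5f1 and Zfp42 read alike on both kinds, and Ldha and Egr1 differ in opposite directions between cell types.

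The 8 arrays outside the comparison gave the same measure in samples that the calls did not use: 4 amplified arrays of embryo cells (epiblast and E9.5 germ cells) and 4 unamplified arrays of EpiLCs on days 1 and 3. In 20 of the 20 genes above, these amplified and unamplified arrays also stood apart without overlap. How many of all tested genes did so was not counted. Dgki read 6850 to 7960 on these amplified arrays and 1 on these unamplified ones, and Prmt1 read 15.7 to 25.2 against 4820 to 5920. In the 300 genes higher in all 4 cell types, 98.7% were also higher in amplified epiblast than in unamplified EpiLCs of days 1 and 3, and in the 737 lower genes 99.5% were lower. Over all tested genes 48.6% were higher there. A difference of at least 2-fold in the same direction held for 87.3% of the 300 and 86.7% of the 737 genes. Of all tested genes, 9.69% were at least 2-fold higher and 15.4% at least 2-fold lower there. These outside arrays differ in cell type as well as in amplification, and the array codes differ here too.

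Probe sets of the same gene often read differently. Among 28404 tested probe sets with a single gene, 1456 (5.13%) were called higher and 4974 (17.5%) lower, a larger share lower than among genes, where the brightest probe set was taken. Of 5085 tested probe sets that the annotation lists for no gene, 440 (8.65%) were higher and 875 (17.2%) lower. Of 7258 genes with at least 2 tested probe sets, 773 had a probe set called higher, 2803 had one called lower, and 163 had both. In 291 genes all tested probe sets were called lower, and in 12 all were called higher. The span between a gene's probe sets had a median of 0.92 on the log2 scale and was at least 2, or 4-fold, in 22.9% of genes. Gains were rarely shared between the probe sets of a gene. The 300 genes higher in all 4 cell types had 157 other tested probe sets, of which 12.7% were also called higher, 18.5% lower and 68.8% neither. The 737 lower genes had 715 others, of which 52.6% were also called lower, 2.8% higher and 44.6% neither. Each gene's own probe set was its brightest over all 16 arrays, a choice that favours probe sets with gains.

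The widest opposite readings within a gene were in Rgs3, Tcf7l2, Styx, Ptdss2, Epb41l2 and Dnajc21. Rgs3 had 4 probe sets, and beside the one that read 5160 to 10300 after amplification, another fell by 1.06 ± 0.17. The remaining ones, at -0.384 ± 0.113 and -0.139 ± 0.155, were short of the 2-fold limit and not called. Tcf7l2 had a probe set that fell from 17 to 221 without to 1 to 39.7 with amplification, a difference of -3.47 ± 0.34 (adjusted p = 3.74e-07). For these genes the direction assigned to the gene is that of 1 probe set. Styx, a catalytically inactive phosphatase, had a probe set at 1 on all unamplified and 214 to 656 on amplified arrays, and another that read 357 to 412 and 9.77 to 51.3. Its probe set with the highest mean read 330 to 716 and 308 to 1040, with overlap. Dnajc21, a co-chaperone in ribosome production, was read at 921 to 2160 without and 6.39 to 401 with amplification by one probe set (difference -6.24 ± 0.62), while its brightest one differed by 0.06 ± 0.20. The standard control gene Actb, for beta-actin, split in the same way. Its brightest probe set read 4010 to 6510 against 2570 to 5470 and was not called, and the other read 10800 to 12800 against 433 to 1370, a difference of -4.09 ± 0.19 (adjusted p = 6.43e-11).

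**Figure D3:**
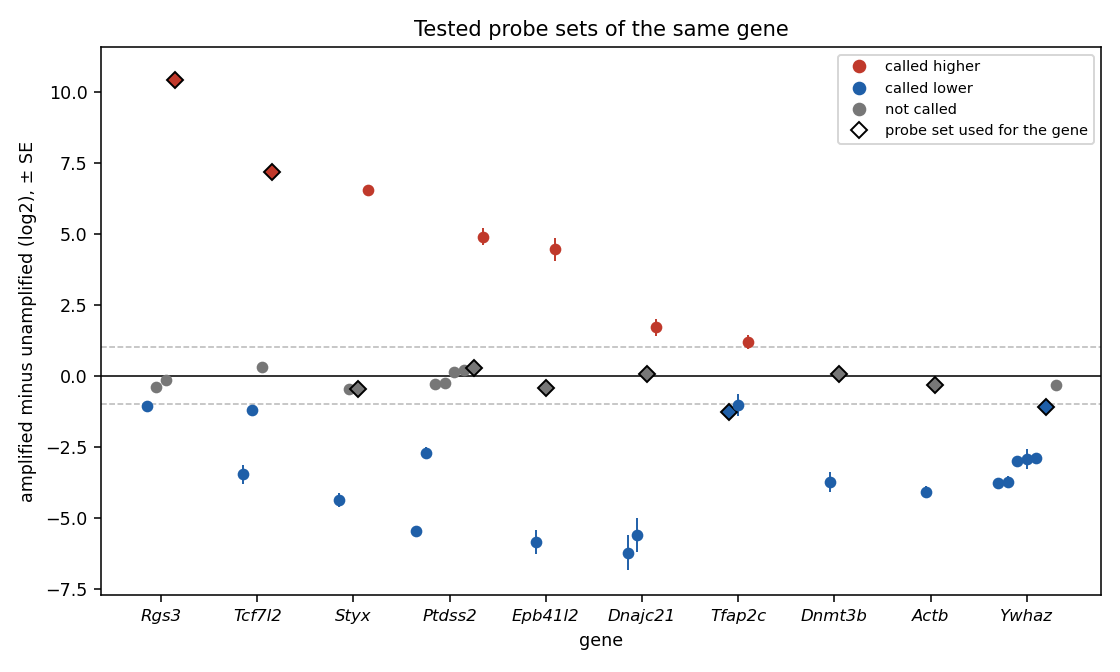
Difference between amplified and unamplified arrays (log2 ± SE, 8 arrays of each kind) for every tested probe set of 10 genes; red is called higher, blue called lower, grey not called, diamonds mark the probe set that stood for the gene, and dashed lines mark a difference of 1. Rgs3 runs from -1.06 to 10.4 and Styx from -4.39 to 6.53, while 6 of the 7 probe sets of Ywhaz lie below -1.

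Control probe sets along single transcripts showed how signal changed with distance from the 3′ end. At Actb the 3′ control differed by -1.65, the middle one by -3.85 and the 5′ one by -5.11. The 5′ to 3′ ratio of Actb was 0.0503 to 0.131 on amplified and 0.792 to 0.874 on unamplified arrays, and the middle to 3′ ratio 0.121 to 0.258 against 0.764 to 0.811. Gapdh, a glycolytic enzyme, kept its 3′ and middle signal (differences of 0.03 and -0.05), while its 5′ to 3′ ratio was 0.25 to 0.86 against 1.13 to 1.21. None of these 3 ratios overlapped between the kinds of array, and each had p = 0.00154 in an exact two-sided permutation test within cell types, the smallest that 1296 permutations can give (adjusted p = 0.00462 over 9 ratios). The middle to 3′ ratio of Gapdh (adjusted p = 0.0602) and both ratios of Tfrc, the transferrin receptor (0.0602 and 0.0556), missed the threshold, as did the 3 of Pcx, pyruvate carboxylase, at 0.204 to 0.511 (exact permutation tests). The middle probe set of Tfrc was under the filter level on every array, at 1 on amplified and at most 24.6 on unamplified ones. Its ratio therefore cannot show whether signal changed.

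The bacterial control transcripts were lower on amplified arrays as well, and unequally so. The Bacillus lys control differed by -1.42 at its 3′ and -2.23 at its 5′ probe set, and the phe control by -3.08 and -4.99. The dap control differed by -2.92 at its 3′ probe set, and its 5′ one read 1900 to 2750 without and 4.7 to 13.6 with amplification, under the filter level. In these 3 the 5′ probe set lost more than the 3′ one. The thr control read 373 to 532 against 8.4 to 47.3 at its 3′ and 212 to 334 against 1 to 7.85 at its 5′ probe set, too dim on amplified arrays to order the losses. The labels do not say at which step these controls were added. The controls bioB, bioC, bioD and cre, which are added to the finished label before hybridization, differed by -0.42 to -1.08, and their part in the other differences was not tested. Probe sets against 18S ribosomal RNA, which has no poly(A) tail, differed by -3.02, -6.6 and -6.22 at the 3′, middle and 5′ parts.

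**Figure D4:**
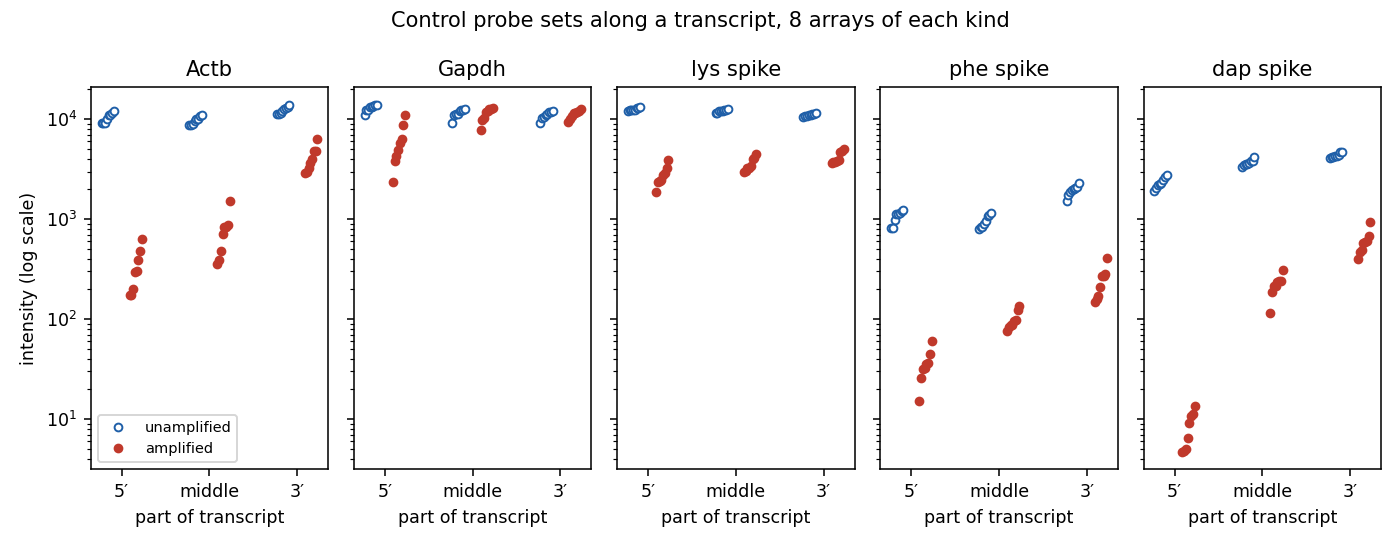
Intensity (log scale) of control probe sets against the 5′ part, the middle and the 3′ part of the Actb and Gapdh transcripts and of 3 bacterial spike controls, on the 8 unamplified (open blue) and 8 amplified (filled red) arrays; points are sorted by value within a set. Signal on amplified arrays drops from 3′ to 5′ in Actb, where 5′ values are 173 to 627, and in the dap spike, where they are 4.7 to 13.6.

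Gene functions were then compared through 35 gene lists, set against the shares over all tested genes (5.38% higher, 9.97% lower). The lists with the highest shares of losses held the machinery that acts on RNA and chromatin in the nucleus. Lists were not matched for level, and bright genes were called lower more often as well. In the next to brightest and the brightest of 5 bins by level, 14.3% and 12.4% of genes were lower, with median differences of -0.18 and -0.19. The part of level in the shares of the lists was not tested. Of 67 chromatin regulators, 1 was called higher and 17 (25.4%) lower, with a median difference of -0.38 against 0.01 over all genes. Pbrm1, a subunit of the PBAF remodelling complex, read 581, 816 and 1360 without and 52.8, 59.2 and 112 with amplification (difference -3.63 ± 0.10, adjusted p = 2.05e-13). Kdm4a, a histone demethylase, differed by -3.60 ± 0.60, Setd5, a SET domain protein, by -2.87 ± 0.21, and the acetyltransferase Ep300 by -1.99 ± 0.31. In these 4 genes amplified and unamplified arrays did not overlap. Kmt2a (-1.32), Kdm1a (-1.37), Crebbp (-1.40), Smarcc1 (-1.41), Suz12 (-1.67) and Bptf (-1.71) were also called lower, and Ehmt2, a histone H3 lysine 9 methyltransferase, was called higher by 1.52 ± 0.11. At the level of probe sets, 81 of 180 (45%) from this list were called lower against 17.5% of all. With arrays centred on their medians, 13 of the 67 genes were called lower, against 7.14% of all genes, and 4 higher.

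Of 65 splicing factors, 2 were called higher and 16 (24.6%) lower, with a median of -0.17. Hnrnpl, an RNA-binding regulator of exon choice, read 1560, 1890 and 2220 against 39.3, 74.9 and 495 (difference -4.42 ± 0.30, adjusted p = 1.18e-08), and the high amplified value was on 1 EpiLC array. Snrpd3, a core protein of the spliceosomal snRNPs, read 3390 to 4760 against 209 to 458 (difference -3.70 ± 0.15, adjusted p = 2.35e-11). U1 component Snrnp70 differed by -2.63 ± 0.28 and U2af1, which binds the 3′ splice site, by -2.44 ± 0.16. All 8 amplified arrays were below all 8 unamplified ones in these 4. The serine-rich splicing proteins Son (-2.33), Srsf5 (-1.93) and Srrm2 (-1.39) were lower too, while Sf3b3 (1.21) and Snrpn (1.30) were higher. Centred on array medians, 14 of the 65 were lower and 2 higher, and the list's median was 0.07 against 0.25 over all genes.

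Counted by gene, motor proteins were near the background, with 8 of 63 (12.7%) called lower against 9.97% of all genes, and 0 higher. At the level of probe sets they were above it, with 39 of 139 (28.1%) called lower against 17.5% of all, and 3 higher. Kif11, the mitotic kinesin Eg5, read 1060 to 1750 against 37.2 to 273 (difference -4.06 ± 0.31, adjusted p = 4.38e-08), and Myh9, a nonmuscle myosin heavy chain, 1380 to 4090 against 108 to 903. Kif20b, a kinesin of cytokinesis, differed by -3.42 ± 0.68 but overlapped, since 1 amplified EpiSC array read 811, as did 1 unamplified EpiSC array. Kif26a differed by -2.67 ± 0.27. Of 19 genes of cholesterol synthesis, 0 were higher and 4 (21.1%) lower: Dhcr7, which makes cholesterol in the last step (-2.68 ± 0.22), Insig1, which holds back the regulators of the pathway (-2.26 ± 0.17), Fdps (-1.89 ± 0.12) and Msmo1 (-1.47 ± 0.30). At the level of probe sets the cholesterol genes were near the background, with 8 of 41 (19.5%) called lower and 1 higher. With a gene's probe sets averaged, Fdps was not called. With arrays centred on their medians, 4 cholesterol genes were called lower and 0 higher, and 5 motor proteins lower and 3 higher.

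Zinc finger genes were the largest list. Of 312 tested, 10 were called higher and 43 (13.8%) lower, with a median of -0.14 against 0.01 over all genes. Centring arrays on their medians gave 0.10 and 0.25. Zfp384 read 326 to 575 without and 16 to 41.8 with amplification (difference -4.33 ± 0.13, adjusted p = 3.9e-13), and Zfp703 read 253 to 467 against 3.43 to 84.6. Zfp934 was at least 5.29-fold and Zfp941 at least 2.17-fold lower. These 4 did not overlap between the kinds of array.

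**Figure D5:**
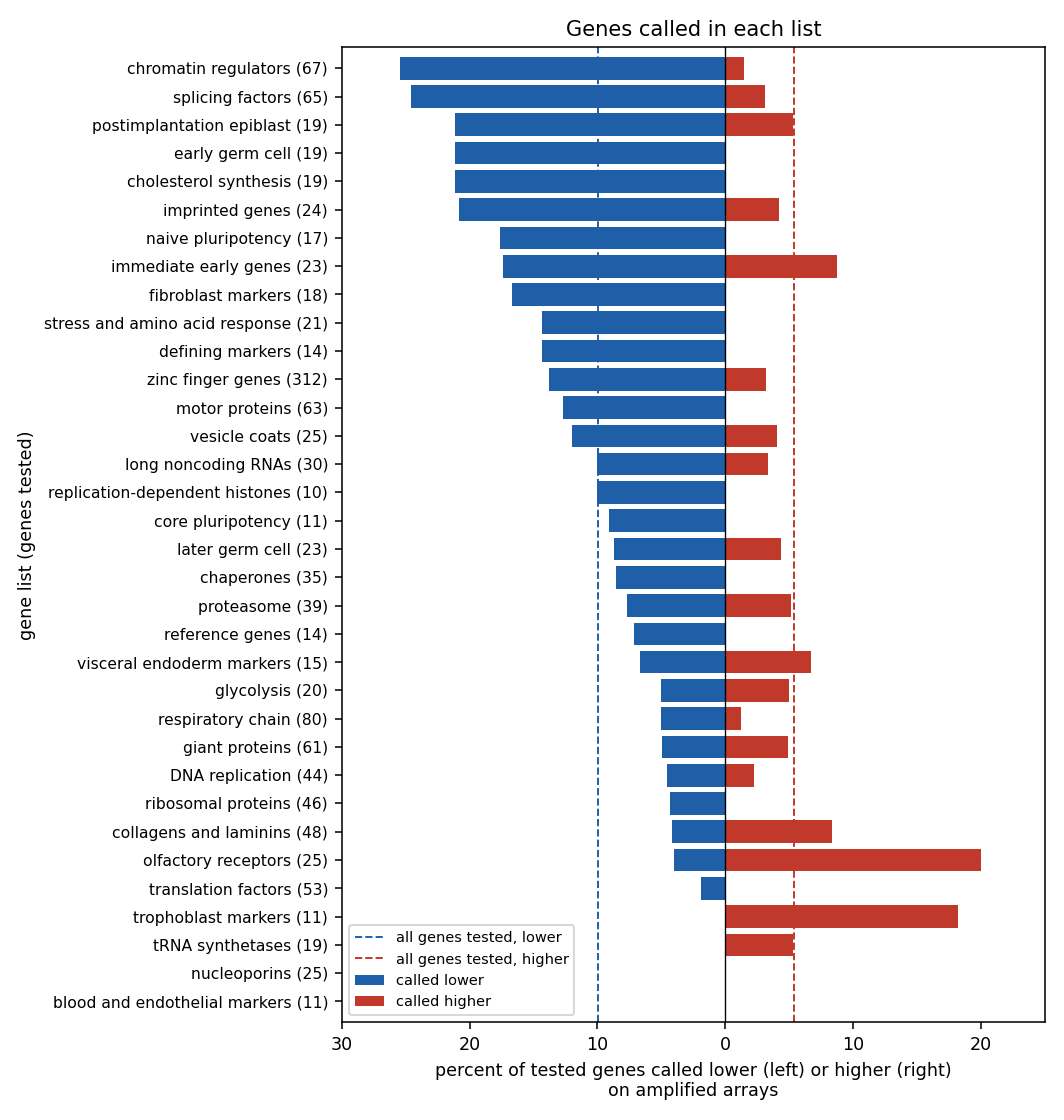
Percent of the tested genes of each list called lower (blue, to the left) or higher (red, to the right) on amplified arrays, for the 34 lists with at least 10 tested genes, whose number stands in brackets; dashed lines are the shares over all 15780 genes. Chromatin regulators (25.4% lower) and splicing factors (24.6%) reach furthest left, olfactory receptors (20% higher) furthest right, and nucleoporins have no called gene.

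Other lists lay near or below the background. Of 46 ribosomal protein genes, 0 were higher and 2 (4.35%) lower: Rps15, with a difference of -2.75 ± 0.23, and Rps25, with -1.08 ± 0.14. Of 80 respiratory chain genes, 1 was higher and 4 (5%) lower, with Atp5mpl, a small subunit of ATP synthase, at 1870 to 2760 against 84.3 to 377 (difference -3.62 ± 0.27, adjusted p = 4.07e-08). Sdhc, a membrane anchor of succinate dehydrogenase, was the gain, from 546 to 889 without to 1180 to 2190 with amplification (difference 1.25 ± 0.11, adjusted p = 1.31e-07), also without overlap. Cox7a1 and Ndufb1 overlapped between the kinds of array, at -1.74 ± 0.43 and -1.22 ± 0.41. Among 53 translation factors only Eif4ebp2, a repressor of cap-dependent initiation, was called (-3.51 ± 0.38). The 25 nucleoporins had 0 genes called by limma, with 7 higher and 8 lower at an unadjusted p under 0.05 and differences from -0.85 to 0.77, and the 19 tRNA synthetases had 1, Vars, which was higher by 1.55 ± 0.11.

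Single members of small lists moved both ways. In the proteasome, 2 of 39 genes were higher and 3 lower: Psmb7 read 2910 to 4760 on amplified and 1340 to 1890 on unamplified arrays (1.14 ± 0.09). The thymic subunit Psmb11 read 9.54 to 40.5 against 1 to 9.76, under the filter level on unamplified arrays and with no fold that can be given. Psmd7 differed by -1.61 ± 0.16 and Psmb3 by -1.10 ± 0.31. Vesicle coats had 1 gain, Sec31a (1.33 ± 0.10), and 3 losses of 25, the clathrin heavy chain Cltc (-2.12 ± 0.36), the COPII protein Sec24a (-1.65 ± 0.16) and the COPI protein Copa (-1.36 ± 0.18). Genes of giant proteins, which have some of the longest coding sequences, had 3 gains and 3 losses among 61 (4.92% each): Dync2h1 (1.92 ± 0.19), Ubr4 (1.76 ± 0.09) and Pclo (1.08 ± 0.16) were higher, and Ahnak (-2.41 ± 0.42), Birc6 (-1.20 ± 0.26) and Igf2r (-1.14 ± 0.25) lower. Centred on array medians, 8 of the 61 were higher and 1 lower, where 10.1% of all genes were higher and 7.14% lower. At the level of probe sets, 36 of 151 (23.8%) from this list were lower and 4 higher. DNA replication factors showed Pold1, the catalytic subunit of a replicative polymerase, higher (1.26 ± 0.09), and Rpa1 (-1.65 ± 0.36) and Rpa3 (-1.06 ± 0.23) lower, of 44. Among 35 chaperones, Hspa1b (-3.21 ± 0.43), Dnajc7 (-1.82 ± 0.18) and Pfdn2 (-1.20 ± 0.13) were lower and 0 higher. Hspa1b, an inducible heat shock protein, read 1130 on 1 unamplified PGCLC array and 152 on the other.

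Olfactory receptor genes, which the nose uses and these cells are not known for, were read at low levels. Of 25 tested, 5 (20%) were called higher and 1 lower, where 14.1% of the dimmest genes were higher. Some passed the filter through amplified arrays alone, and with the filter on both kinds of array 2 of 17 were higher, Olfr66 and Olfr159, and 1 lower. Olfr66 read 10.3, 23 and 40.4 without and 135, 211 and 331 with amplification (difference 3.13 ± 0.24, adjusted p = 5.62e-08), Olfr159 read 107 to 270 against 326 to 655, and Olfr68 1 to 12.8 against 16.7 to 36.1. Olfr672 was lower by 1.26 ± 0.19 on the log2 scale. The first 3 were higher on every amplified array than on any unamplified one, but with the floor raised to the 40th percentile the difference of Olfr68 was -0.10. Of the 38 on the array, 25 passed the filter on low values.

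Several genes that mark the states of these cells read lower after amplification. The labels do not say whether both kinds of array share their RNA. Amplification, the run and a difference between cultures, such as in their mix of cells, cannot be told apart. Among 17 genes of naive pluripotency, 0 were higher and 3 (17.6%) lower. Klf4, a factor of the naive state, read 4840 and 4900 in unamplified ESCs and 322 and 329 in amplified ESCs (difference over all cell types -3.24 ± 0.23, adjusted p = 2.29e-08). Its levels were lower in each of the other cell types too, 65.4 and 72 against 3.02 and 8.23 in EpiLCs and 106 and 214 against 12.6 and 16.3 in PGCLCs. Klf5 read 2450 and 2740 against 118 and 119 in ESCs and 1490 and 1630 against 130 and 140 in PGCLCs (-3.72 ± 0.17, adjusted p = 1.08e-10). Nanog, a core factor of pluripotency, differed by -1.11 ± 0.18, and by -0.87 with arrays centred on their medians, where it was not called. Lin28a, an RNA-binding protein that blocks let-7 and the called gene among 11 core pluripotency genes, differed by -2.30 ± 0.21.

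Genes of the postimplantation epiblast had 1 gain (5.26%) and 4 losses (21.1%) among 19, where 5.38% of all genes were higher and 9.97% lower. Their median difference was 0.05, against 0.01 over all genes. Zic2, a zinc finger factor of the primed state, read 743 and 897 against 18.9 and 20 in EpiLCs and 572 and 894 against 15.7 and 24.9 in EpiSCs (-4.56 ± 0.44, adjusted p = 5.61e-07). Nodal, the ligand that sustains the primed epiblast, differed by -2.96 ± 0.39 in all 4 cell types together, and Sox4 by -1.40 ± 0.18. Otx2, a forebrain and epiblast factor, read 1650 and 1760 against 332 and 356 in EpiLCs and 813 and 866 against 32.9 and 61 in ESCs, while 1 amplified EpiSC array, at 1310, was above both unamplified ones, at 597 and 608 (-2.48 ± 0.49, adjusted p = 0.000697). Lefty1, a Nodal inhibitor, was higher by 1.39 ± 0.30. Among 19 early germ cell genes 0 were higher and 4 (21.1%) lower, Cxcr4 (at least 1.51-fold), Lin28a, Tfap2c (-1.27 ± 0.24) and Lifr (-1.09 ± 0.12). The median of these 19 was 0.08, and 7 of them had a difference below 0. Later germ cell genes had Mov10l1 higher (1.40 ± 0.22) and Sycp3 (-1.47 ± 0.31) and Dazl (-1.01 ± 0.31) lower, of 23. That was 4.35% higher and 8.7% lower, near the shares of all genes, with a median of -0.46.

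Some markers read nearly alike on both kinds of array. Pou5f1 (Oct4), needed for pluripotency and active in all 4 cell types, read 3600 to 6950 without and 5180 to 7060 with amplification (difference 0.12 ± 0.10, adjusted p = 0.308). The differences of Zfp42 (-0.12 ± 0.11), Prdm1 (0.08 ± 0.14) and Prdm14 (-0.05 ± 0.14) were as small. Others were not called over all cell types together but differed within some. Cer1 read 463 and 530 without and 179 and 220 with amplification in EpiSCs, the cell type that has it, and its difference of -0.33 ± 0.21 averages in 3 cell types near 1. Krt18 (-0.35 ± 0.19) differed by -1.40 in ESCs, and Esrrb (0.70 ± 0.32) by 1.35 in PGCLCs. Foxa2 read 679 and 772 against 618 and 731 in EpiSCs and at most 16.6 elsewhere. Dppa3 (0.98 ± 0.21) and Pou3f1 (-0.98 ± 0.18) stood just under the 2-fold limit. For some of these genes the result again belonged to 1 probe set. Dnmt3b, a de novo DNA methyltransferase, differed by 0.05 ± 0.16 at its brightest probe set and by -3.75 ± 0.35 at its other, Pou3f1 by -3.52 ± 0.92 at its other, and Tfap2c had a probe set called lower (-1.03 ± 0.39) and another higher by 1.18 ± 0.24 beside the brightest one.

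Of 14 genes used as references in expression work, Ywhaz alone was called. It read 3780 to 5890 without and 1710 to 3200 with amplification (-1.11 ± 0.09, adjusted p = 5.43e-08), and 6 of its 7 probe sets were lower. With arrays centred on their medians its difference was -0.87 and it was not called. At the probe sets that stood for the genes, the smallest differences among the 14 were those of Sdha (-0.02 ± 0.14), Rplp0 (-0.04 ± 0.06) and Pgk1 (-0.04 ± 0.20). Eef1a1, a translation elongation factor, differed by -0.12 ± 0.05, near the top of the scale at 13000 to 16100. Of 31 tested probe sets from this list, 9 (29%) were called lower against 17.5% of all, and 1 higher. Another probe set of Sdha, at 27.4 to 51.5 without and 3.34 to 13.1 with amplification, was called lower, as was one of Tfrc. Polr2a, the largest subunit of RNA polymerase II, differed by -0.60 ± 0.20 at its brightest probe set and by 2.22 ± 0.13 at its other.

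Some regulatory lists held deep losses of single genes. As a list, the immediate early genes had a median difference of 0.23, above the 0.01 of all genes. Of them 9 were higher and 9 lower at an unadjusted limma p under 0.05. The median of the imprinted genes was -0.20. Among 23 immediate early genes, 2 were higher and 4 (17.4%) lower: Ccn2 (CTGF), a target of YAP and serum response, read 575 to 3030 against 6.09 to 74.6 (-5.13 ± 0.46, adjusted p = 2.59e-07), Jund 1610 to 3390 against 127 to 747 (-2.49 ± 0.22), Gadd45b differed by -1.87 ± 0.28 and Jun by -1.53 ± 0.31, while Fosl1 (1.32 ± 0.21) and Fosb were higher. Fosb read 3.58 to 17.3 on unamplified arrays, under the filter level, and 10.2 to 26.4 on amplified arrays other than those of EpiSCs, at 174 and 395, so that its fold is at least 1.11. The losses of Ccn2 and Jund showed no overlap between the kinds of array. Among 24 imprinted genes, 1 was higher, Snrpn (1.30 ± 0.20), and 5 (20.8%) lower, led by Ube3a, a ubiquitin ligase (599 to 1520 against 72.7 to 285, -2.69 ± 0.17). Peg10, counted among the 5, was under the filter level on amplified arrays and above it on unamplified ones only in EpiSCs, at 54.5 and 60.6. With arrays centred on their medians 2 of the 24 were lower and 2 higher. Of 30 long noncoding RNAs in the list, Rian, Snhg6 (-1.76 ± 0.36) and Dleu2 (-1.28 ± 0.50) were lower and Dancr (1.01 ± 0.25) higher, and of 21 stress and amino acid response genes Ddit4 (-2.74 ± 0.32), Vldlr (-1.43 ± 0.26) and Xbp1 (-1.01 ± 0.18) were lower. With other processing or with arrays left out, Dleu2 lost its call in 20 settings, Xbp1 in 11 and Dancr in 8.

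Markers of other cell types were read for cells that cultures might hold. Of 11 trophoblast markers tested, Hand1 and Tfap2a were called higher and 0 lower. Hand1, a transcription factor of trophoblast and heart, is described here because of its values, which were seen before it was chosen. Hand1 read 110 to 267 without and 12900 to 15300 with amplification (6.17 ± 0.12, adjusted p = 1.95e-15), in all 4 cell types alike. The 13 markers on the array summed to between 1450 and 15700 without and between 14100 and 33300 with amplification. Without Hand1 the sums were 1260 to 15400 and 1180 to 19900. Of 18 fibroblast markers, 0 were higher and 3 lower, Acta2 (-2.74 ± 0.34), Tagln (-2.18 ± 0.49) and Lum (-1.02 ± 0.39), and their sum was 28800 to 29000 in unamplified and 13300 to 19700 in amplified EpiSCs. Visceral endoderm markers had 1 gain, Gata6 (1.23 ± 0.14), and 1 loss, Gata4 (-1.38 ± 0.22), among 15, and 11 blood and endothelial markers had 0 genes called by limma, with 4 higher and 0 lower at an unadjusted p under 0.05. Their part in the other results was not tested.

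The difference varied with how strongly a gene was expressed. Genes were placed in 5 equal bins by their level on the unamplified arrays of EpiLCs on days 1 and 3, which the comparison did not use. From the dimmest to the brightest bin the median difference was 0.33, 0.13, -0.02, -0.18 and -0.19. The share called higher went from 14.1% in the dimmest bin to 0.824% in the brightest. The share called lower was 3.9% in the dimmest, 14.3% in the next to brightest and 12.4% in the brightest bin. A dim gene could enter the test through its amplified arrays alone. With the filter applied to both kinds of array, the share called higher was 7.55% in the dimmest and 0.825% in the brightest bin, and the share called lower 2.08% and 12.3%. With arrays centred on their medians the dimmest bin had a median of 0.57 and the brightest 0.05. The distance a gene spans in the genome (RefSeq table, GRCm38.p6, held for 15670 or 99.3% of tested genes) went with smaller shifts, from a median of 0.13 in the shortest of 5 bins, up to 6.79 kb, to -0.10 in the longest, from 66.3 kb. The share called lower was 8.23% in the shortest and 12.1% in the longest bin. Of 844 genes that the table gives as long noncoding RNAs, 10.7% were higher and 6.16% lower, against 5.06% and 10.2% of 14688 protein-coding genes. In the list of 30 long noncoding RNAs above, 3.33% were higher and 10% lower. These shares were not matched for level or taken with the filter on both kinds of array, and the part of level in them was not tested.

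Amplification also went with wider spread between replicates, most of all for bright genes. In the brightest bin the median SD between replicate arrays was 0.07 without and 0.43 with amplification on the log2 scale, and in the dimmest bin 0.43 and 0.51. Replicates came closer together with rising level on unamplified arrays, and much less so on amplified ones. Among the amplified groups EpiSCs had the widest SD in the brightest bin, at 0.68. The replicates of a group carry different array codes on both kinds of array, so their spread can hold a difference between runs. Residuals of same-numbered amplified arrays correlated above 0.1 in 6 of 6 pairs of groups. The part of runs in the spread was not tested.

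Few genes were above the filter level on arrays of 1 kind alone at the probe set that stood for them. On all 8 amplified and no unamplified arrays this held for 98 of 18193 genes (0.539%), with Dgki, Rgs3, Atp2b2, Tmem151a and Lrrc38 as the brightest. Rgs3 belongs here by 1 probe set, while another of its probe sets read 119 to 341 on unamplified arrays. On all 8 unamplified and no amplified arrays it held for 62 genes (0.341%), with Prmt1, Ncam2, Rpgrip1, Grin2b and Mideas as the brightest. Other probe sets of Grin2b, Mideas and Rpgrip1 had medians above 24 on amplified arrays, at 38.4, 34.6 and 29.2, so this too is a statement about single probe sets. By contrast 10430 genes (57.3%) were above it on all 16 arrays and 1908 (10.5%) on none.

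The last question was whether the difference was alike in all 4 cell types. An interaction test on the 8 group means called 288 of 15780 genes (1.83%), with an adjusted p under 0.05 and differences that spanned at least 2 on the log2 scale between cell types. Of them, 93 were also called over all cell types together, and 74 had differences of at least 1 in opposite directions. The cell type farthest from the others was ESCs in 130, PGCLCs in 87, EpiSCs in 45 and EpiLCs in 26 of the 288. Ldha, lactate dehydrogenase A, read 3060 and 3090 in unamplified and 7460 and 8150 in amplified ESCs, but 4120 and 6760 in unamplified and 327 and 506 in amplified PGCLCs (adjusted p = 0.000151 for the interaction). Egr1, an immediate early transcription factor, read 152 and 165 against 3 and 12.1 in ESCs and 165 and 174 against 854 and 887 in EpiLCs (adjusted p = 0.000171). The kinds of array stood apart in both, in opposite directions. Bcl2l11 (Bim), which promotes apoptosis, was lower in all 4 cell types, at 511 and 519 against 1 in ESCs and at 654 and 662 against 154 and 288 in EpiSCs. Nrk read 618 and 688 in unamplified EpiSCs, 15.2 and 16.1 in unamplified ESCs and 1.72 to 11 on all amplified arrays, so its differences follow its unamplified level. Of the 288 genes, 31 were under the filter level on all amplified and 9 on all unamplified arrays, where differences between cell types need not come from amplification. Plekhg1 was lower by 4.88 in ESCs and differed by 0.03 in PGCLCs, at 32.3 to 36.5 on both kinds, and D1Pas1 by -2.52 in ESCs and 2.50 in PGCLCs.

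Among the gene lists, 9 of 23 later germ cell genes and 5 of 23 immediate early genes were in this group of 288, which held 1.83% of all tested genes. Collagens and laminins had 4 of 48 and zinc finger genes 4 of 312. There were 3 each among 20 glycolysis genes, 19 postimplantation epiblast genes, 18 fibroblast markers and 11 blood and endothelial markers. The other lists had fewer. Dazl, an RNA-binding protein of germ cells, read 569 and 573 against 71.8 and 79 in ESCs and 332 and 497 against 291 and 340 in PGCLCs, and Sycp3, of the meiotic chromosome axis, 388 and 399 against 51.3 and 72.5 in ESCs and 103 and 130 against 110 and 112 in PGCLCs. The ESC arrays alone stood far apart in Dazl. With 2 arrays per group the count moved with single arrays. It was 1213 without EpiSC amplified replicate 1 and 491 without replicate 2, 120 and 126 without ESC unamplified replicate 1 or 2, 157 without ESC amplified replicate 1, 160 and 177 without EpiLC unamplified replicate 1 or 2, 146 and 142 without EpiSC unamplified replicate 1 or 2, and 165 and 170 without PGCLC amplified replicate 1 or 2. With both kinds of ESC array left out it was 34, and with PGCLCs left out 120. As the labels do not say that the amplified and unamplified arrays of a cell type share their RNA, a difference between cultures and an effect of amplification cannot be told apart within a cell type.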

How the data were processed

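The deposited table holds the authors' linear intensity of 45101 probe sets on each array. Software and normalization: not given in the sources used here. Values run from 1 to 17519 on the 16 arrays. Values under the 10th percentile, 4.2, were raised to it before log2. The array annotation gave a single gene symbol for 34945 probe sets, several for 932 and none for 9160, with 64 controls, and 34741 gene IDs matched RefSeq (204 did not); 18193 genes had a probe set. Only single-gene probe sets entered the gene results. Genes entered the test if 2 or more of 8 arrays of either kind exceeded that kind's 40th percentile (24 amplified, 28 unamplified). limma 3.58.1 in R 4.3.3 fitted cell type plus amplification (11 residual degrees of freedom) and, for the interaction, 8 group means (8 degrees), with an intensity trend; p-values are two-sided, adjusted by Benjamini-Hochberg over all genes. The number of arrays limits the precision. On data simulated for this comparison (15780 genes) the fit recovered 94 of 100 genes changed by 1.5 on the log2 scale and 100 of 100 changed by 3, with 0 false calls among 15580. The simulated arrays were independent, with a spread per gene pooled over all groups and the same shift in every cell type. Real amplified arrays scattered more and shared residuals, so these rates need not hold for them. Named genes were the 10 greatest gains and 10 greatest losses shared by all 4 cell types, leaving out provisional names; up to 4 called genes of each list with at least 3 called; reference genes and defining markers; the 6 with the largest interaction F; the 6 with the widest opposite probe sets; and the 5 brightest on 1 kind of array alone. Other genes, such as called list members beyond the first 4 and members of lists with fewer than 3 called, are named as counted members of the lists. Members and lists were chosen with earlier results of these data known. Where genes were named for the size of their difference, a lack of overlap follows largely from that choice and adds no support. Same-numbered arrays were checked as pairs: residuals correlated above 0.1 in 6 of 6 pairs of amplified groups, 1 of 6 of unamplified groups and 0 of 16 mixed pairs. Same-numbered amplified arrays also share an array code. The main fit treats all arrays as independent, so its SEs and p-values may be too small. Other scalings, floors, filters, probe set choices, arrays left out and a replicate block were tried. Folds taken as bounds, and bins and lists with the filter on both kinds of array, were added after seeing the data. Gene span replaced the protein length first planned, since protein sequences were not used here.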

Additional observations from a re-analysis of the deposited data

Results flagged for a closer look

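The difference between amplified and unamplified arrays depended on the cell type for 288 genes, by the interaction test on 8 group means, and among the named genes for the following, each with the span between its lowest and highest fitted difference over the 4 cell types on the log2 scale. In Nrk, Cxcr4 and Zfp934 all amplified arrays, and in Fosb all unamplified arrays, were under the filter level, so their spans follow the level on the other kind against the floor of 4.2 and do not show that amplification differed between cell types. The amplified ESC arrays of Egr1 and Bcl2l11 were under that level as well, which makes the size of their differences there depend on the floor. The span was 6.83 in Egr1, from -4.47 in ESCs to 2.36 in EpiLCs (limma, adjusted p = 0.000171), 5.76 in the kinase gene Nrk, from -7.28 in EpiSCs to -1.52 in ESCs (0.000151), and 5.3 in Bcl2l11, from -6.94 in ESCs to -1.64 in EpiSCs (0.000151). It was 5.04 in Ldha, from -3.7 in PGCLCs to 1.34 in ESCs (0.000151), 5.02 in D1Pas1, from -2.52 in ESCs to 2.5 in PGCLCs (0.000171), and 4.91 in Plekhg1, from -4.88 in ESCs to 0.03 in PGCLCs (0.000151). Cxcr4, the receptor that guides migrating germ cells, had a span of 5.49, from -6.19 in PGCLCs to -0.70 in EpiLCs (0.000434). Tagln, a smooth muscle protein, had a span of 5.06, from -4.41 in EpiSCs to 0.65 in ESCs (0.00105), Fosb 4.48, up to 4.51 in EpiSCs (0.0365), and Zfp934 4.46, down to -7.45 in ESCs (0.00304). Dazl had a span of 2.92, from -2.92 in ESCs to 0 in EpiSCs, where it was at the floor (0.00393), Sycp3 2.63 (0.0269), Gadd45b 2.46, down to -3.53 in EpiSCs (0.0205), and Fgf5 2.19, from -0.88 in EpiSCs to 1.3 in PGCLCs, where its level was at most 14.9 (0.0372). Groups held 2 arrays each, too few to look for single arrays that stand apart.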

How the results depend on the processing

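Against 849 genes higher on amplified arrays there were 1600 with arrays centred on their medians, 1672 after quantile normalization, 501 with the floor at the 40th percentile and 541 with the filter applied to both kinds of array. Against 300 higher in all 4 cell types they were 543, 564 and, with that filter, 192. Genes lower in all 4 cell types numbered 1133 against 737 when a gene's probe sets were averaged. Genes with opposite probe sets numbered 253 after quantile normalization, 84 with the higher floor and 68 with the filter on both kinds, against 163. The filter on both kinds tests fewer genes by construction; for the other shifts the cause was not tested. The interaction count of 288 became 34 without ESCs and 120 without PGCLCs. Leaving out 1 array at a time gave 797 to 940 genes higher, 1516 to 1642 lower, 264 to 323 and 658 to 781 in all 4 cell types, 120 to 1213 for the interaction, 156 to 178 with opposite probe sets, and 95 to 118 and 60 to 83 above the filter level on amplified or unamplified arrays alone. The replicate block gave 848 higher and 1572 lower genes and changed no call among the 137 named genes. That block was common to both kinds of array, so it did not model residuals shared by amplified arrays alone.

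Reversals among named genes came with another floor, another probe set or, for Egr1, without ESCs. With the higher floor Psmb11 differed by -0.029 and Olfr68 by -0.10. Without a floor, or with the probe set brightest on unamplified arrays, Rgs3 differed by -0.38, and without single arrays its value ran from -0.41 to 10.67, since another of its probe sets stood for the gene without most amplified arrays. That choice of probe set also gave -1.22 for Tcf7l2, -0.45 for Pold1 and -6.24 for Dnajc21, and averaging probe sets gave -1.85 for Dnmt3b and -1.99 for Dnajc21. Egr1 differed by 1.13 without ESCs. Centring arrays on their medians took 14 of 105 called named genes below the limits for a call, namely Ndufb1, Dleu2, Birc6, Psmb3, Pfdn2, Rpa3, Col11a1, Nanog, Lifr, Dazl, Igf2r, Xbp1, Lum and Ywhaz. Signal near the floor limits the folds of dim genes.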

Other observations

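Within genes that had at least 2 tested probe sets, ranked on the unamplified arrays of EpiLCs on days 1 and 3, the brightest probe set was called lower in 16.1% of genes and the dimmest in 22.4%, and called higher in 2.49% and 6.94%.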
